A study of Drosophila melanogaster with 8 samples.

Results

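The 8 Hox genes of *Drosophila melanogaster* (*lab*, *pb*, *Dfd*, *Scr*, *Antp*, *Ubx*, *abd-A* and *Abd-B*) and the paired homeobox genes *en* and *inv* were followed in RNA-seq of adult testes. These 10 genes were chosen by symbol as classical targets of Polycomb repression and matched to FlyBase identifiers, and all 10 were found among the 14256 genes of the count table. The series also has 4 ChIP-seq samples, which were not used here. The 4 RNA-seq libraries came from whole testes of adult flies 5 days old, 2 from *Tj-Gal4* flies as the control and 2 from flies labelled Tj-Gal4/+; UAS-E(Pc) shRNA/+, written here as *Tj>E(Pc) shRNA*. All 4 carried the *Tj-Gal4* driver, and 1 pair of testes went into each library. The driver acts in the somatic cells of the gonad, the hub included, so germ cells, muscle sheath and other tissue in a library were not targeted. The labels number the replicates and say nothing of separate cultures or crosses, so p-values measure the spread between these libraries.

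Hox genes encode homeodomain transcription factors that give the segments of the body axis their identities. In flies they lie in a pair of clusters on chromosome 3R, the Antennapedia complex (*lab*, *pb*, *Dfd*, *Scr*, *Antp*) for the head and anterior thorax and the bithorax complex (*Ubx*, *abd-A*, *Abd-B*) for the posterior thorax and abdomen. *en* and *inv* lie side by side on chromosome 2R and encode closely related homeodomain repressors of posterior compartments. Polycomb group proteins keep all of these genes silent outside their proper domains through methylation of histone H3 and compaction of chromatin. E(Pc), Enhancer of Polycomb, was found as a modifier of Polycomb phenotypes and is a subunit of the Tip60 histone acetyltransferase complex. In the embryo *abd-A* and *Abd-B* specify the somatic cells of the gonad, and *Abd-B* marks those that are male-specific.

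The libraries differed in depth, with 3307767 and 4273908 counts in the controls against 6251181 and 3691459 in the knockdown-labelled pair, replicate 1 first in both groups. The mRNA of the targeted gene did not go down with the label. *E(Pc)* (FBgn0000581, 2R) had 854 and 1187 counts in the controls and 2685 and 1235 in the knockdown-labelled libraries. In CPM, counts scaled to a common library size with TMM factors, this was 275.0 ± 1.64 against 372.0 ± 47.6 (SD, n = 2 each). This difference of 0.44 on the log2 scale with a standard error of 0.18 did not pass the test (adjusted p = 0.083, edgeR quasi-likelihood test with Benjamini-Hochberg adjustment). Every direction below therefore is that of the labels, and "knockdown-labelled" stands for *Tj>E(Pc) shRNA* as labelled. Among cell type markers, 4 of 5 tested early germline genes were called higher, against 22.5% of all tested genes. The summed level of this list was 305 to 338 CPM in controls against 515 to 516 in the knockdown-labelled libraries. In the cyst lineage list, with 7 genes tested, the median was 0.01 on the log2 scale. *zfh1* was called higher (0.65, adjusted p = 0.0238, edgeR) and *so* lower (−1.38, adjusted p = 0.00751, edgeR). This list summed to 614 to 628 against 678 to 778 CPM. Without *chinmo*, which was not called, the sums overlapped at 283 and 319 against 321 and 239. The spermatocyte and spermatid list summed to 1113 to 1285 against 1010 to 1217 CPM. Of its 10 tested genes *aly*, *can* and *comr* were called higher and *ProtA* and *ProtB* lower. Muscle sheath markers summed to 1167 to 1178 against 1023 to 1061 CPM, with *Mef2* called higher and *Act57B* called lower among 9 tested. Accessory gland markers summed to 54.5 to 60.5 against 58.1 to 66.3 CPM. Ejaculatory duct and bulb markers summed to 64.8 to 75.6 against 95.5 to 115 CPM. Among 3 tested, *EbpIII* and *Est-6* were called higher and *Ebp* lower. Fat body markers summed to 35 to 44.4 against 33.7 to 46.5 CPM, with *Lsp2* called higher among 3 tested. Tracheal and epithelial markers summed to 131 to 162 against 144 to 176 CPM, with *grh* called lower among 3 tested. Over all tested genes 22.5% were called higher and 11.4% lower. A sum is set mostly by the most abundant genes of its list and does not show that all of them moved alike. Fewer cells of a type and less RNA per cell cannot be told apart in whole-testis libraries, and the part of these lists in the results below was not tested.

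In the control testes the most abundant of the 10 mRNAs per unit length was *abd-A*, followed by *en* and *inv*. Levels between genes are compared in cRPKM, reads per kilobase scaled by the study to a common library size. In the 2 control libraries *abd-A* stood at 13.7 and 14.9 cRPKM. *en* followed at 9.77 and 10.4 cRPKM and *inv* at 9.77 and 9.04 cRPKM, so the ranges of this pair met and their order is not defined. *lab* came next at 5.02 and 4.18 cRPKM, above *pb* at 3.62 and 3.0 and *Abd-B* at 2.14 and 2.69. *Antp* at 1.04 and 1.46 cRPKM overlapped *Dfd* at 1.31 and 0.928. *Scr* and *Ubx* had at most 9 counts in any library and were not ranked. All members were modest in level: *abd-A* stood at the 41.9 percentile of the 11773 genes with a control cRPKM value, *en* at 34.3, *inv* at 32.8, *lab* at 20.2 and *Dfd* at 5.88. In the *Tj>E(Pc) shRNA* libraries *abd-A* was still the highest at 7.47 to 9.76 cRPKM and *Dfd* the lowest at 0.188 to 0.284, while *inv* at 3.49 to 7.2 cRPKM overlapped *en*, *pb* and *lab*.

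**Figure D1:**
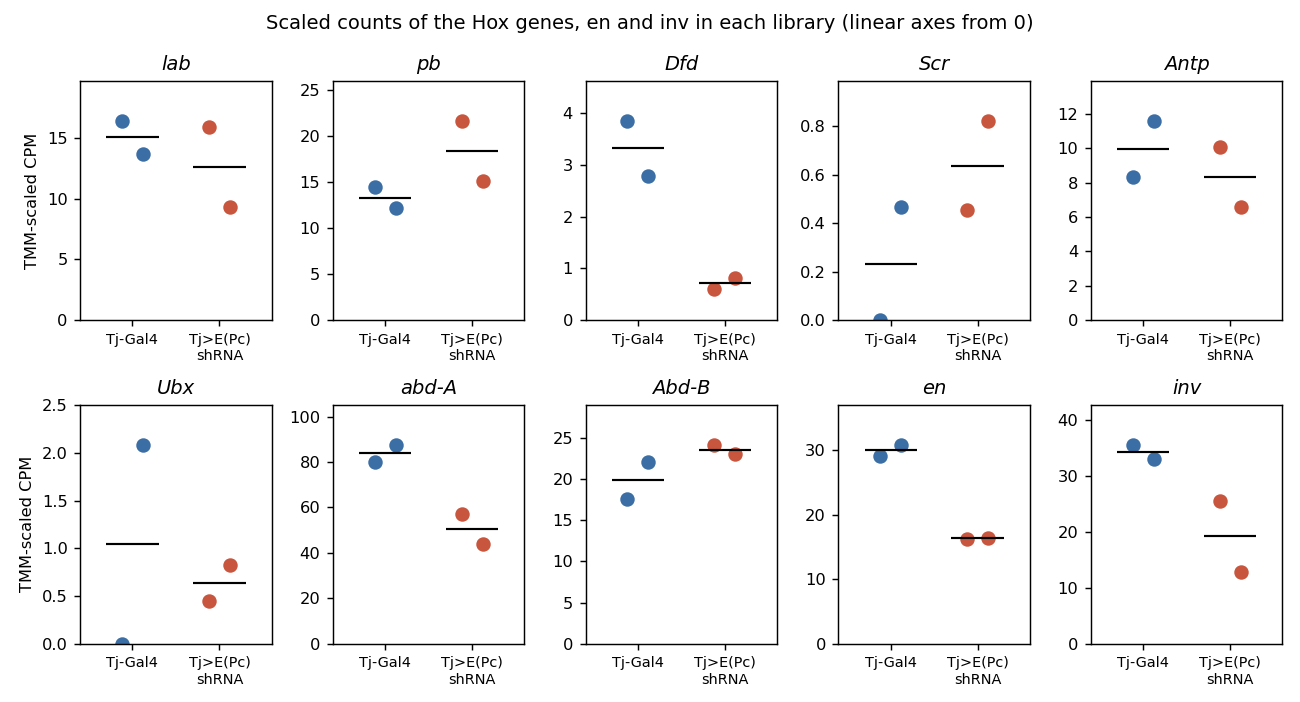
Scaled counts (TMM-scaled CPM) of each of the 10 genes in each library, 1 panel a gene with its own linear axis from 0, controls in blue and libraries labelled as knockdown in red, with bars at the group means. The red points of *abd-A*, *en*, *inv* and *Dfd* lie below both blue points, those of *pb* and *Abd-B* lie above, and those of *lab* and *Antp* overlap.

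Of the bithorax complex, *abd-A* was lower in the *Tj>E(Pc) shRNA* libraries, *Abd-B* did not pass the test and *Ubx* was too rare to test. *abd-A* (FBgn0000014, 3R), which in the embryo specifies anterior abdominal segments and the somatic gonad, had 250 and 377 counts in the controls and 379 and 160 in the knockdown-labelled libraries. These counts correspond to 80.2 and 87.7 CPM against 57.3 and 43.8 CPM. Both knockdown-labelled libraries were below both controls, and the gap between the groups was larger than the gap within either. The log2 fold change was −0.72 with a standard error of 0.15, a 1.65-fold lower level (adjusted p = 0.00662, edgeR quasi-likelihood test). The call held in all 17 other fits or thresholds set for it, with log2 fold changes between −1.0 and −0.56.

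*Abd-B* (FBgn0000015, 3R), the Hox gene of the posterior abdomen and genitalia, did not share this pattern. It had 55 and 95 counts in the controls and 160 and 84 counts in the knockdown-labelled libraries. On the CPM scale this was 17.6 and 22.1 against 24.2 and 23.0, with both knockdown-labelled libraries slightly above the controls. The log2 fold change was 0.24 with a standard error of 0.21 (adjusted p = 0.389, edgeR), and 2 standard errors either side ran from −0.19 to 0.67. The sign turned to −0.07 when a trend on gene length was removed. *Ubx* (FBgn0003944, 3R), the Hox gene of the third thoracic segment, had 0 and 9 counts in the controls and 3 and 3 in the knockdown-labelled libraries. Its ratio of pooled counts, scaled by library totals without TMM factors, was 0.508. The exact 95% interval was 0.149 to 1.6 for counting error only, so no difference was detectable at this depth.

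Because *abd-A* and *Abd-B* are read in the same library, their ratio does not depend on a scaling factor common to the whole library. Effects of gene length or read density need not cancel in it. The genes differ in both, at 5491 and 7719 bp and 0.0531 and 0.0128 counts per base. Per kilobase, *abd-A* exceeded *Abd-B* by 6.39-fold (95% interval 4.76 to 8.72, counting error only) and 5.58-fold (4.44 to 7.06) in the controls. In the *Tj>E(Pc) shRNA* libraries the ratio was 3.33 (2.76 to 4.03) and 2.68 (2.04 to 3.53). The intervals of the knockdown-labelled libraries lay below those of the controls, with means of 3.0 ± 0.461 and 5.98 ± 0.574 (SD, n = 2 each). The exact two-sided permutation test gave p = 0.333, which is as low as 2 against 2 can go, and the pair was chosen after its values were seen.

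Of the Hox genes of the Antennapedia complex none was called higher, *Dfd* was called lower from few reads, and *lab*, *pb* and *Antp* did not pass the test. *lab* (FBgn0002522, 3R), which acts in the head and the embryonic midgut, had 51 and 59 counts in the controls and 105 and 34 in the knockdown-labelled libraries. As CPM this was 16.4 and 13.7 against 15.9 and 9.31, and the groups overlapped. Its log2 fold change was −0.21 with a standard error of 0.30 (adjusted p = 0.61, edgeR), and the sign turned to 0.09 without *Tj>E(Pc) shRNA* replicate 2. *Antp* (FBgn0260642, 3R), the Hox gene of the mesothorax, had 26 and 50 counts in the controls and 67 and 24 in the knockdown-labelled libraries. At 8.34 and 11.6 CPM against 10.1 and 6.57 CPM its groups overlapped as well. Its log2 fold change was −0.24 with a standard error of 0.34 (adjusted p = 0.596, edgeR), and it was 0.03 without *Tj-Gal4* replicate 2. Counts of *Antp* are uncertain because the noncoding gene *lncRNA:CR43252* overlaps it in the reference annotation.

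*pb* (FBgn0051481, 3R), the Hox gene of the adult mouthparts, lay higher in both knockdown-labelled libraries without passing the test. It had 45 and 52 counts in the controls and 143 and 55 in the *Tj>E(Pc) shRNA* libraries, which is 14.4 and 12.1 CPM against 21.6 and 15.1 CPM. The knockdown-labelled libraries differed from each other by more than the lower of them differed from the higher control. On the log2 scale the difference was 0.50 with a standard error of 0.27 (adjusted p = 0.163, edgeR). Without *Tj>E(Pc) shRNA* replicate 2 it was 0.72, in a fit that left the deepest library alone in its group. Through that fit *pb* was the single member that any fit called higher. The difference was 0.20 without *Tj>E(Pc) shRNA* replicate 1, 0.34 with the depth trend removed and 0.27 with the gene length trend removed.

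*Dfd* (FBgn0000439, 3R), which patterns the maxillary and mandibular head segments, had 12 and 12 counts in the controls and 4 and 3 in the deeper and shallower knockdown-labelled libraries. The levels were 3.85 and 2.79 CPM against 0.604 and 0.822 CPM, and the groups did not overlap. The log2 fold change was −2.21 with a standard error of 0.54 (adjusted p = 0.0123, edgeR). *Dfd* passed the filter on low counts through its control libraries only, so a lower value in the other group was built into its being tested. From the counts alone, scaled by library totals without TMM factors, the pooled ratio was 0.222. Its exact 95% interval of 0.0809 to 0.532 covers counting error only. DESeq2 did not call it (log2 fold change −2.3, adjusted p = 0.0707). The edgeR call was also lost without *Tj-Gal4* replicate 1 (−2.0, adjusted p = 0.151), *Tj-Gal4* replicate 2 (−2.44, adjusted p = 0.07) or *Tj>E(Pc) shRNA* replicate 1 (−1.94, adjusted p = 0.0737). *Scr* (FBgn0003339, 3R), the Hox gene of the labial segment and prothorax, had 0 and 2 counts in the controls and 3 and 3 in the knockdown-labelled libraries. In an edgeR fit with no filter its adjusted p was 0.604. Its pooled ratio without TMM factors, 2.29, had an exact 95% interval of 0.409 to 23.2, and no difference was detectable.

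*en* was lower in the *Tj>E(Pc) shRNA* libraries, and *inv*, its neighbour and paralog, lay just short of the threshold. *en* (FBgn0000577, 2R), the selector of posterior compartments, had 91 and 133 counts in the controls and 108 and 60 in the knockdown-labelled libraries. At 29.2 and 30.9 CPM against 16.3 and 16.4 CPM, both knockdown-labelled libraries lay below both controls. The closeness of replicates rests on 60 to 133 counts a library and does not measure how well the values repeat. The log2 fold change was −0.88 with a standard error of 0.20, a 1.84-fold lower level (adjusted p = 0.00877, edgeR). Of the 17 other fits and thresholds only the fit without *Tj-Gal4* replicate 2 lost the call at this threshold (−0.83, adjusted p = 0.0548).

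*inv* (FBgn0001269, 2R) had 111 and 142 counts in the controls and 169 and 47 in the knockdown-labelled libraries. This was 35.6 and 33.0 CPM against 25.5 and 12.9 CPM, so both knockdown-labelled libraries were below the controls but 1 of them far more than the other. The log2 fold change was −0.78 with a standard error of 0.27 (adjusted p = 0.0502, edgeR). It ranged from −0.42 without *Tj>E(Pc) shRNA* replicate 2 to −1.40 without *Tj>E(Pc) shRNA* replicate 1 (adjusted p = 6.49e-07, edgeR), and 10 of the 17 other fits and thresholds called it lower. The ratio of *en* to *inv* per kilobase was 1.0 and 1.14 in the controls and 0.779 and 1.56 in the knockdown-labelled libraries, so the 2 paralogs did not keep a fixed ratio between the *Tj>E(Pc) shRNA* replicates.

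Marker lists of cells outside the cyst lineage differed between the same groups in both directions. Hub, neuron and muscle sheath lists summed lower in the knockdown-labelled libraries, and early germline and ejaculatory duct and bulb lists summed higher. The 3 hub markers tested summed to 216 to 239 CPM in the controls and 148 to 166 in the knockdown-labelled libraries. Their median was −0.45 on the log2 scale. *upd1* and *hh* were called lower, against 11.4% of all tested genes, and *Fas3* was not called (−0.07, groups overlapping). The call of *upd1* was lost without either control library (adjusted p = 0.12 and 0.211, edgeR). Neuron markers summed to 119 to 143 against 66.8 to 94.3 CPM. Among the 4 tested, *nSyb* and *brp* were called lower and *Appl* higher, against 11.4% and 22.5% of all tested genes. *elav* was not called (0.54), with both knockdown-labelled libraries above both controls. *hh* is itself a Polycomb target and a gene that Engrailed controls in wing discs. The part of these cells in the *en*, *inv* and *abd-A* values was not tested.

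Across the set, 8 of the 10 genes passed the low-count filter, and 3 were called lower (*abd-A*, *en* and *Dfd*) and 0 higher. Of all 11163 genes tested, 11.4% were called lower and 22.5% higher, 33.9% in either direction. Leaving out *Dfd*, for the reason above, 2 of 7 were called lower. None of the members was higher even at an unadjusted p under 0.05 with edgeR, and DESeq2 also called 0 higher. Both knockdown-labelled libraries lay below both controls in *abd-A*, *en* and *inv*, and also in *Dfd*, whose lower place was built into its being tested. They lay above both controls in 2 members (*pb* and *Abd-B*). Over all tested genes the shares were 33.8% below and 38.9% above. The median log2 fold change of the 7 tested members other than *Dfd* was −0.24, against 0.00 over all tested genes. Most members have few reads for their length, and log2 fold changes depended on read density, with a median of 0.16 over the 2962 genes in the same range of counts per base as the tested members other than *Dfd*. In that range 23.5% were called higher and 9.42% lower. With 3 calls these counts do not set the members apart from other genes, and no test over the list was run.

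**Figure D2:**
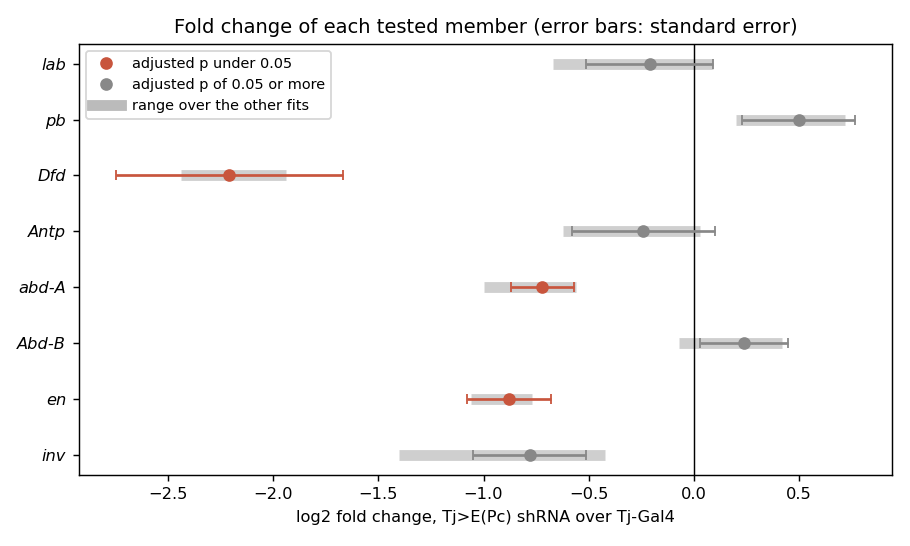
Log2 fold change of each tested member, knockdown-labelled over Tj-Gal4, with error bars of 1 standard error from the edgeR fit, red for called genes and grey bands for the range over the other fits. *abd-A* at −0.72, *en* at −0.88 and *Dfd* at −2.21 are red, and the grey bands of *lab*, *Antp* and *Abd-B* cross 0.

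The shares of the Hox genes in their pooled counts also differed between these libraries, with *abd-A*, called lower above, as the largest part. Counts of the 8 Hox genes together came to 439 and 656 in the controls and 864 and 366 in the knockdown-labelled libraries, which as CPM without TMM scaling is 133 and 153 against 138 and 99.1, so the totals overlapped. *abd-A* held 56.9% of these counts (exact 95% interval 52.2 to 61.6, Clopper-Pearson, counting error only) and 57.5% (53.6 to 61.3) in the controls. In the *Tj>E(Pc) shRNA* libraries it held 43.9% (40.5 to 47.2) and 43.7% (38.6 to 49.0). The replicates of a group differed by less than 1 percentage point while the groups differed by more than 10. The gap between replicates was narrower than the counting intervals, so it does not measure how well the shares repeat. The means were 57.2% ± 0.369 and 43.8% ± 0.106 (SD, n = 2 each; exact permutation p = 0.333, the smallest possible).

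*Abd-B* and *pb* took larger shares in both knockdown-labelled libraries. *Abd-B* held 12.5% and 14.5% of Hox counts in the controls and 18.5% and 23.0% in the knockdown-labelled libraries. For *pb* the shares were 10.3% and 7.93% against 16.6% and 15%. *lab* kept nearly the same share, with means of 10.3% ± 1.86 and 10.7% ± 2.02 (SD, n = 2 each). When counts were divided by gene length first, *abd-A* held 51.0% and 53.7% in the controls and 39.6% and 40.7% in the knockdown-labelled libraries, and *lab* took the next place in the controls with 18.8% and 15.2%. A share falls when others rise, so these are not independent measurements, and at 2 libraries a group they are a description.

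**Figure D3:**
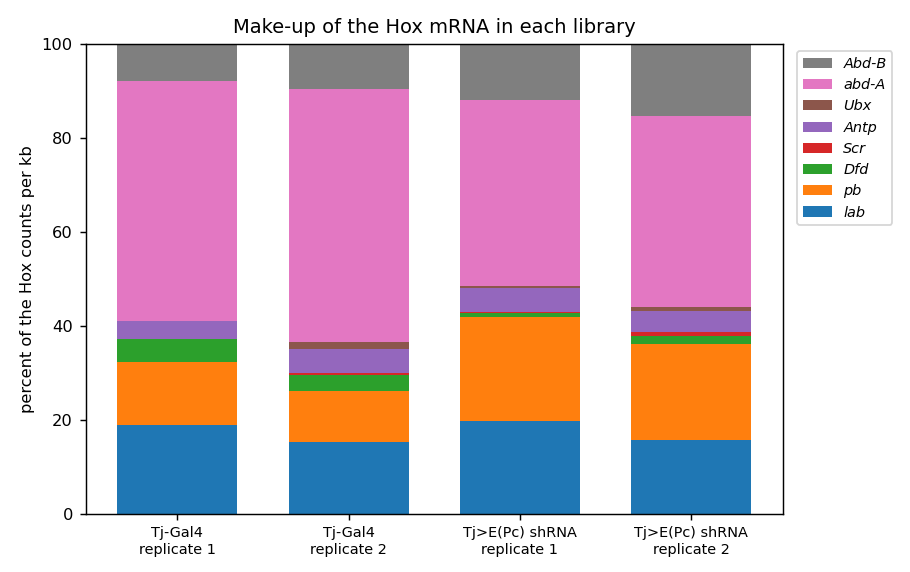
Stacked bars of the share of each Hox gene in the counts per kilobase of the 8 Hox genes, in percent, 1 bar for each library. The *abd-A* segment takes 51.0% and 53.7% in the controls and 39.6% and 40.7% in the knockdown-labelled libraries, and *pb* takes 13.5% and 10.9% against 22% and 20.6%.

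Genes that sit beside the members did not all move with them. The order of genes was read from a RefSeq annotation of a later assembly than the study used. There 15 genes that are not members lie nearest to a member on either side. Of these 8 were tested, 1 was called higher and 3 lower, against 22.5% and 11.4% of all tested genes. The pair *inv* and *en* is flanked by *E(Pc)* itself on the *inv* side and by *tou* on the *en* side. *tou*, which encodes a chromatin remodelling factor, had 241 and 291 counts in the controls and 920 and 436 in the knockdown-labelled libraries. It was higher by a log2 fold change of 0.84 with a standard error of 0.14 (adjusted p = 0.00206, edgeR), opposite in direction to *en* next to it.

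The 3 nearest neighbours that were called lower lie within or beside the Hox complexes. Of these *Glut3* and *VhaM9.7-d* have many reads for their length, 0.472 and 0.559 counts per base against at most 0.0531 in the tested members. Counts of highly covered genes may be compressed, and the part of this in the 2 calls was not tested. *ftz*, the pair-rule homeobox gene between *Scr* and *Antp* that is no longer a homeotic gene in flies, had 95 and 145 counts in the controls and 125 and 29 in the knockdown-labelled libraries. Its log2 fold change was −1.19 with a standard error of 0.32 (adjusted p = 0.0176, edgeR), and it was −2.01 without *Tj>E(Pc) shRNA* replicate 1 and −0.77 without replicate 2. *Glut3*, a sugar transporter gene next to *abd-A* inside the bithorax complex, had 704 and 927 counts in the controls and 998 and 603 in the knockdown-labelled libraries. Its log2 fold change of −0.48 (adjusted p = 0.0314, edgeR) was not called without either control library or without *Tj>E(Pc) shRNA* replicate 1, with adjusted p between 0.0547 and 0.309. *VhaM9.7-d*, a proton pump subunit gene beyond *Abd-B*, had a log2 fold change of −0.54 (adjusted p = 0.0144, edgeR), which was not called without *Tj-Gal4* replicate 1 (adjusted p = 0.147) or with DESeq2 (adjusted p = 0.0616).

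Most of the other genes of the 2 complexes had few or no reads. Of 18 other genes listed for the Antennapedia complex, 11 had at most 9 counts in every library. Of the 5 tested 1 was called higher and 2 lower, against 22.5% and 11.4% of all tested genes. The gene called higher was *lncRNA:CR43435*, with 3 and 0 counts in the controls and 44 and 16 in the knockdown-labelled libraries, at least 6.64-fold higher than 3 counts in each control library. It passed the low-count filter through the knockdown-labelled libraries only, and it lies inside *lncRNA:CR42721*, the nearest gene before *Dfd*, so its counts are uncertain. *lncRNA:CR43252*, which overlaps *Antp*, was lower with 158 and 202 counts against 212 and 47 (log2 fold change −1.04, standard error 0.30, adjusted p = 0.0249, edgeR). Without *Tj>E(Pc) shRNA* replicate 1 its log2 fold change was −1.91 and without replicate 2 it was −0.61. In the bithorax complex 2 of 7 other genes were tested and both were called lower, against 11.4% of all tested genes: *Glut3* and *CG31275*. The latter call (log2 fold change −0.47, adjusted p = 0.0495, edgeR) was lost with DESeq2 and without either control library or *Tj>E(Pc) shRNA* replicate 1, with adjusted p of up to 0.374. Reads per length were high for *Glut3* and *CG31275* (0.472 and 0.642 counts per base), and counts may be compressed in such genes. The noncoding bithorax RNAs *lncRNA:bxd* (4 and 5 counts against 16 and 2) and *lncRNA:iab4* (2 and 4 against 1 and 1) stayed near the floor. The microRNA genes *mir-iab-4* and *mir-iab-8* had 0 counts in every library. This set was chosen after its values were seen.

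**Figure D4:**
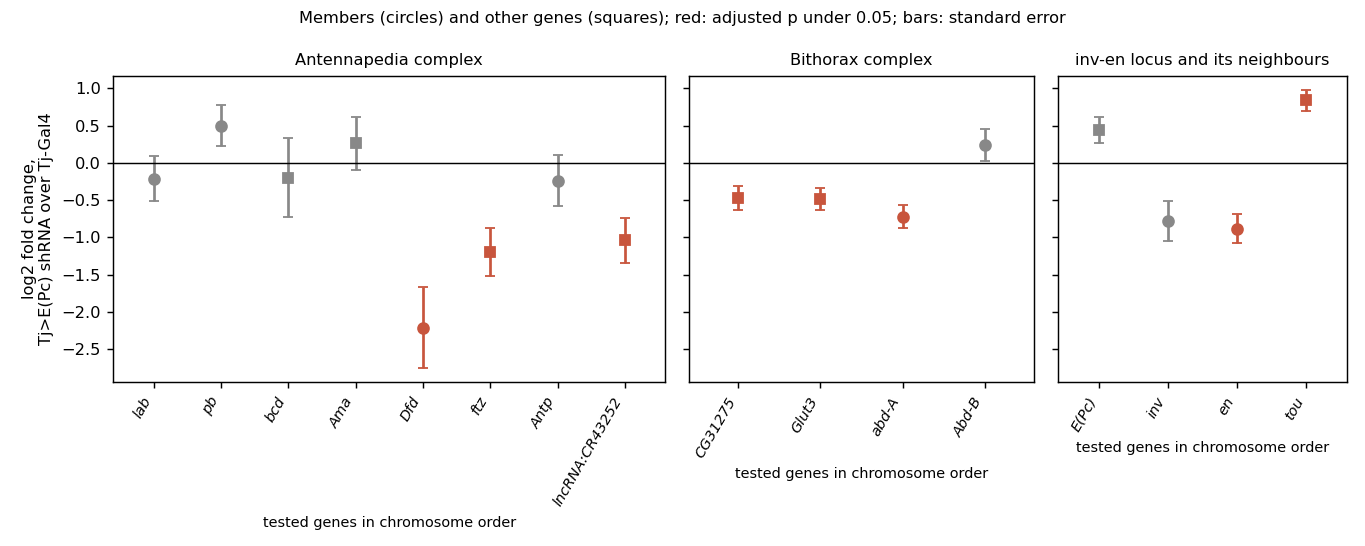
Log2 fold change of tested genes in chromosome order along the Antennapedia complex, the bithorax complex and the *inv* and *en* locus, members as circles and other genes as squares, with bars of 1 standard error and red for called genes; *lncRNA:CR43435*, given above as a bound, is not drawn. In the last locus *tou* at 0.84 lies on the opposite side of 0 from *en* at −0.88 beside it, and *ftz* at −1.19 and *Glut3* at −0.48 are lower in the Hox complexes.

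Among proteins that work with Hox factors, the cofactor gene *exd* was higher. Exd binds DNA together with Hox proteins and enters the nucleus with Hth. *exd* had 146 and 224 counts in the controls and 563 and 332 in the knockdown-labelled libraries, or 49.5 ± 3.75 against 88.0 ± 4.17 CPM (SD, n = 2 each). It was higher by 0.82 on the log2 scale with a standard error of 0.13 (adjusted p = 0.0016, edgeR), and the call held in all 17 other fits and thresholds. *hth*, its partner, had 5 and 8 counts in the controls and 23 and 4 in the knockdown-labelled libraries and was not tested. The other 3 cofactors tested, *tsh*, *tio* and *disco*, had log2 fold changes of 0.02, −0.14 and 0.06. So 1 of 4 was called higher and 0 lower, against 22.5% and 11.4% of all tested genes, with a median of 0.04.

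Of 39 other Polycomb target genes in the table, 25 were tested, 2 were called higher and 7 lower, against 22.5% and 11.4% of all tested genes, and the median on the log2 scale was −0.19. The largest difference was that of *caup*, an Iroquois homeobox gene, with 89 and 148 counts in the controls and 25 and 12 in the knockdown-labelled libraries. At 31.5 ± 4.17 against 3.53 ± 0.346 CPM (SD, n = 2 each) it was 8.76-fold lower, with a log2 fold change of −3.13 and a standard error of 0.28 (adjusted p = 1.2e-04, edgeR). *ara*, the Iroquois gene next to it, had a log2 fold change of −0.88 (adjusted p = 0.0208, edgeR), and its call was lost without either control library (adjusted p = 0.086 and 0.0697). *hh*, the ligand of the Hedgehog pathway, had 226 and 335 counts in the controls and 228 and 100 in the knockdown-labelled libraries. It was lower by a log2 fold change of −1.26 with a standard error of 0.15 (adjusted p = 3.95e-04, edgeR). The calls of *caup* and *hh* held in all 17 other fits and thresholds.

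The other 4 lower calls rested on 1 or more libraries. These were *H15* (log2 fold change −0.73), *dac* (−0.60), *oc* (−0.85) and *prd* (−0.43), all transcriptional regulators, with edgeR adjusted p between 0.0384 and 0.0482. Each lost its call without *Tj-Gal4* replicate 2, with adjusted p between 0.0516 and 0.222, and *H15*, *dac* and *prd* lost it without *Tj-Gal4* replicate 1 and with DESeq2 too. *prd* lost it without *Tj>E(Pc) shRNA* replicate 2 as well (−0.28, adjusted p = 0.0595, edgeR). The 2 genes called higher encode Polyhomeotic proteins, subunits of the Polycomb repressive complex that are themselves under Polycomb control. *ph-p* had 27 and 28 counts in the controls and 189 and 61 in the knockdown-labelled libraries (log2 fold change 1.62, standard error 0.33, adjusted p = 0.00478, edgeR). *ph-d* had 31 and 33 against 164 and 67 (log2 fold change 1.32, standard error 0.28, adjusted p = 0.00601, edgeR). They are near-identical tandem copies, and the study kept only reads with a single alignment site. Reads that match both copies equally well were therefore lost, and the values of both genes are uncertain. *Psc*, another Polycomb subunit gene, had a log2 fold change of −0.07 and was not called.

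Of 14 genes known as targets of Hox proteins in the embryo or imaginal discs, 13 were tested, 2 were called higher and 3 lower, again against 22.5% and 11.4% of all tested genes, and the median on the log2 scale was −0.24. The list holds the members *Dfd* and *Antp* and shares *hh* with the Polycomb target list. *rpr*, a cell death gene that Dfd and Abd-B activate in the embryo, had 22 and 39 counts in the controls and 5 and 6 in the knockdown-labelled libraries. At 8.07 ± 1.43 against 1.2 ± 0.628 CPM (SD, n = 2 each) its log2 fold change was −2.87 with a standard error of 0.47 (adjusted p = 0.00164, edgeR). Like *Dfd*, *rpr* passed the low-count filter through the control libraries only, so a lower value in the other group was built into its being tested. The 3 lower calls were *rpr*, *Dfd* and *hh*, so *hh* alone of them passed the filter in both groups. The median of this list includes *Dfd* and *rpr*. The higher calls were *h* (listed as *hry*, log2 fold change 0.77, adjusted p = 0.0223, edgeR) and *ci* (0.63, adjusted p = 0.0391, edgeR). Both were lost without either control library, with adjusted p between 0.0925 and 0.247, and DESeq2 called neither. Of the 5 other protein-coding genes of the Antennapedia complex on the list, 3 were tested and *ftz* alone was called. Over all these lists, members left out, 46 of 70 genes were tested, 6 were called higher and 11 lower, against 22.5% and 11.4% of all tested genes. The lower calls include *rpr*, with the limit given above.

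**Figure D5:**
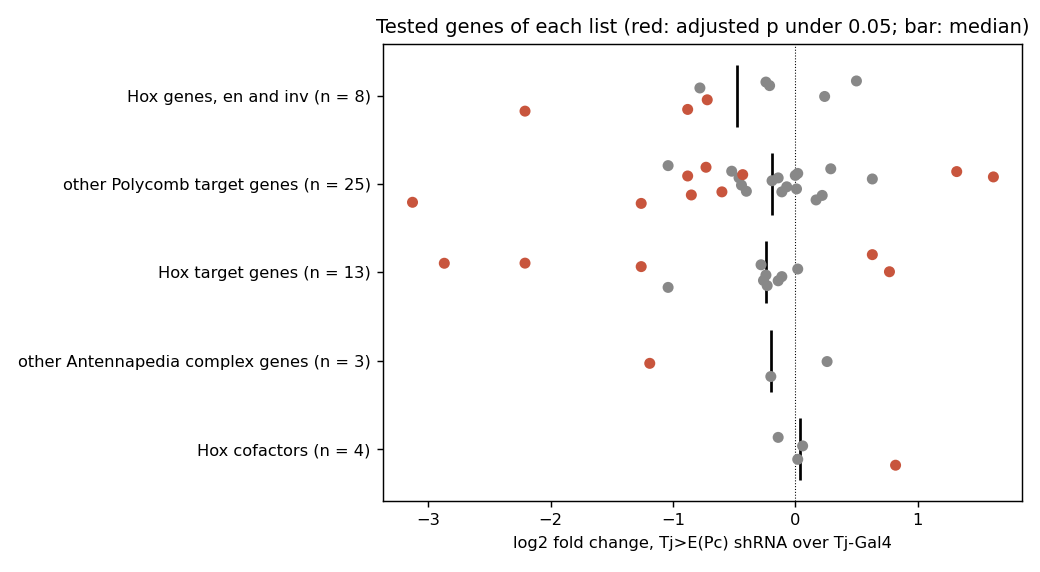
Log2 fold change of each tested gene of the members and of the related lists, knockdown-labelled over Tj-Gal4, with red points for called genes and a black line at each list's median (points are spread vertically only for legibility, and the members' line includes *Dfd*). Medians of the related lists run from −0.24 for Hox target genes to 0.04 for Hox cofactors, and *caup* at −3.13 and *rpr* at −2.87 lie lowest. The line of the Hox target genes includes *Dfd* and *rpr*, which passed the low-count filter through the control libraries only.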

How the data were processed

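Whole-testis RNA of 4 libraries, 2 of *Tj-Gal4* and 2 labelled *Tj>E(Pc) shRNA*, was analysed, with groups and replicate numbers from the sample labels. The authors aligned 50-nt single-end reads with Bowtie 0.12.7 to the dm3 genome and deposited raw counts per gene over merged exons. Reads over overlapping genes are described as divided between them, and the use of strand is not given in the sources used here, so counts of overlapping genes are uncertain. The authors also deposited RPKM values (cRPKM, from edgeR pseudo-counts at a common library size) for 11773 genes. The counts of a gene do not greatly exceed its length in bases. Compression of highly covered genes was inferred from this and was not measured.

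Counts were fitted in edgeR 4.0.16 (R 4.3.3). The genotypes set the filterByExpr filter, which kept 11163 of 14256 genes. TMM factors scaled the libraries. Genes were tested by quasi-likelihood F, adjusted by Benjamini-Hochberg over every gene kept and called at an adjusted p under 0.05. Standard errors were obtained as the absolute log2 fold change over the root of F. The fit was tested on simulated counts with known changes, the same dispersion for every gene and no trend on depth. No gene with few counts was changed, and none by as little as *abd-A* or *en*, so the simulation does not cover such cases. cRPKM values were compared on log2(cRPKM + 1) with an exact two-sided permutation test, whose smallest p is 0.333. Intervals are 95% exact intervals and the floor is 3 counts, and both cover counting error alone, because the reads carry no molecular identifiers.

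Alternatives were DESeq2 1.42.0, upper-quartile scaling, library size alone, edgeR's exact test, no filter, at least 10 counts in every library, limma 3.58.1 on log2(cRPKM + 1) and log2(cRPKM + 0.1), a replicate block, removal of trends on gene length or depth, an adjusted p under 0.01 and each library left out. A crossed replicate block was added after the data were seen. The members and lists were chosen with earlier results of these data known. All members were named, as were called genes of the lists or up to 4 examples per list. Symbols were matched to 13564 of the 14256 identifiers, and listed symbols with no match by identifier are not analysed here. Promoter and protein sequences, planned as a description, were not used here.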

Additional observations from a re-analysis of the deposited data

How the results depend on the processing

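With 2 libraries a group, depth and single libraries limit most of these values, and a fit that leaves 1 library in a group assumes that it varies like the others. Over all genes, 2517 were called higher and 1272 lower; the counts were 1453 and 724 with DESeq2, 1478 and 338 at an adjusted p under 0.01, and from 1219 to 3288 and from 447 to 2652 with a library left out. Lower calls numbered 2007 with the depth trend removed. The same replicate numbers do not mark shared origin in the labels, and deviations from the group means correlated at −0.25 for same numbers and 0.25 for crossed numbers. A replicate block gave 2107 higher and 888 lower calls and the crossed block 3190 and 3014. With the replicate block *abd-A* (−0.73), *en* (−0.87) and *Dfd* (−2.23) were called lower, as was *inv* (−0.88, adjusted p = 0.0178, edgeR). Members called lower numbered 2 to 4 over the alternatives and 2 to 3 with a library left out, and members called higher 0 to 1. Calls in the related lists were 4 to 8 higher and 5 to 17 lower with a library left out. Lower calls there were 7 with DESeq2, 7 and 6 with limma at pseudocounts of 1 and 0.1, 17 with the gene length trend removed and 3 at an adjusted p under 0.01. *E(Pc)* passed as higher with library size alone (0.51), limma (0.42 and 0.43), the crossed block (0.43), the depth trend removed (0.43) and *Tj>E(Pc) shRNA* replicate 2 left out (0.56), was 0.13 with the length trend removed and ranged from 0.30 to 0.56 with a library left out. The sign turned for *lab* (−0.67 to 0.09) and *Antp* (−0.62 to 0.03) with a library left out, and for *Abd-B* with the length trend removed (−0.07, or −0.04 with a replicate block as well). On log2(cRPKM + 1) the differences with a library left out ran from −0.54 to 0.10 for *lab* and from −0.31 to 0.03 for *Antp*, and 4 to 6 members had a lower mean. The differences in the share of Hox counts were −13.4 percentage points for *abd-A*, 7.23 for *Abd-B* and 6.7 for *pb*. They became −12.2, 4.75 and 9.09 per kilobase and ran from −13.7 to −13.2, 5.01 to 9.45 and 5.54 to 7.86 with a library left out. The cause of these changes was not tested. *Dfd* could not be fitted with limma or at a minimum of 10 counts.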
